A study of Mus musculus with 2 samples.

Results

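The mRNAs of the autophagy machinery and its cargo receptors were followed through 36 genes, chosen by symbol from the known parts of the pathway and found by Ensembl identifier among the 55487 genes of the series. Each symbol matched 1 identifier, so no measured value decided between identifiers. All 36 had an identifier and all 36 reached 1 FPKM in both libraries, FPKM being fragments scaled to a gene's length and to the library's total. The libraries came from apoptotic osteoblasts of young and of old mice, 1 library per age. Bone fragments gave adherent stromal cells, which were passaged 3 times, kept in osteogenic medium for 3 days and exposed to ultraviolet light for 0.5 h, after which over 90% took up Trypan Blue. Both groups share all of these steps, so dying cells were compared with dying cells and living osteoblasts were not part of the comparison. The sources used here do not give the strain, the sex, the age in months, or the number of animals or cultures behind each library. The young library carries the treatment label day 0 and the old library day 5, so age and day cannot be told apart.

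Autophagy encloses cytoplasm in a double membrane, the autophagosome, and hands it to lysosomes for breakdown. A kinase complex built on Ulk1 starts the process, a lipid kinase complex built on Pik3c3 marks the membrane, and Atg9a and the Atg2 proteins bring it lipid. Enzymes related to those of ubiquitin conjugation then attach proteins of the Atg8 family, LC3 and GABARAP, to the membrane, where cargo receptors such as Sqstm1 (p62) bind them. Osteoblasts use the pathway in mineralisation and in survival under stress, and LC3 is also used by phagocytes that engulf dead cells. mRNA levels do not measure the flow of cargo through the pathway, which depends largely on protein modification.

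The young library held 16333396 reads in genes and the old library 18114336. These totals were recovered from the FPKM values, and the members had between 65 and 9489 reads in a library. With 1 library per group no difference has a replicate check and no test was run. Brackets hold exact 95% intervals of the old-to-young FPKM ratio; they hold counting error alone and not the spread between cultures or animals. In bulk RNA, fewer cells of a type and less RNA per cell cannot be told apart. Of 7 osteoblast markers, Col1a1, Runx2, Sp7, Spp1 and Ibsp were present in both libraries, while Alpl had 36 and 47 reads and Bglap, osteocalcin, 3 and 6. These markers did not move together. Spp1, osteopontin, was at 224 and 1732 FPKM, for a ratio of 7.74 [7.49 to 8.003], while Sp7 was at 55.5 and 28.9 FPKM (0.521 [0.482 to 0.562]), Col1a1 at 8568 and 6788 FPKM (0.792 [0.788 to 0.797]) and Runx2 at 92.1 and 72.7 FPKM (0.789 [0.751 to 0.829]). Their summed level, mostly Col1a1, was 8949 FPKM (young) and 8632 FPKM (old), and the part of these shifts in the results below was not tested. Markers of other cell types summed to 30.4 and 32.0 FPKM for leukocytes and macrophages (1 of 6 genes at 0 in both), 51.8 and 47.98 FPKM for osteoclasts (1 of 4 at 0 in both, nearly all of the sum from Ctsk) and 98.2 and 97.8 FPKM for chondrocytes (1 of 3 at 0 in both, the rest from Col2a1 and Sox9). Within the leukocyte and macrophage list Cd14 had 92 and 208 reads, for a ratio of 2.04 [1.59 to 2.63], and Lyz2 458 and 438 reads, for a ratio of 0.862 [0.755 to 0.985]. The endothelial, adipocyte and erythroid sums were under 1 FPKM in each library. Ptprc, which marks leukocytes, had 1 and 0 reads, and Adgre1 and Acan had none.

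Across the pathway the summed level was close between the libraries. By counting interval, single members differed about as often as genes at large, with intervals off 1 for 58.3% of members and 54.1% of all genes. The 36 members summed to 2051 FPKM (young) and 1992 FPKM (old), for a ratio of 0.972, against 0.996 for all 12561 genes whose mean reached 1 FPKM. On the log2 scale of FPKM + 1, which makes differences of low genes smaller, the median of the members was −0.11 and that of all genes tested −0.07. The members' log2 ratios ran from −0.60 (Atg4d) to 0.43 (Uvrag). Their SD was 0.22, beside 0.40 for all genes. These SDs are not matched for depth, since members had at least 65 reads in a library and all genes went down to 0. None of the 36 differed by 2-fold, where the old library had 1.97% of all genes higher and 0.868% lower. At 1.5-fold, 0 members were higher and 1 was lower (2.78% of the 36), beside 5.52% and 4.47% of all genes.

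At a log2 ratio of 0.32 or more in size, 1 member was higher, the lipid kinase subunit Uvrag, beside 12.3% of all genes. At the same size 6 members were lower (16.7% of the 36), namely Atg4d, Map1lc3a, Gabarapl2, Ulk2, Atg12 and Becn1, beside 17.2% of all genes. The share of lower members was therefore near that of genes at large. Counting intervals lay wholly above 1 for 7 members (19.4%) and wholly below 1 for 14 (38.9%), where the shares of all genes were 20.6% and 33.5%. Interval shares throughout are not matched for depth, and more reads make an interval narrower. Set against the median FPKM ratio of all genes, 0.952, in place of 1, the intervals of 10 members lay above and those of 10 below, beside 27.3% and 24.3% of all genes. Atg14, Wipi1, Atg16l1 and Map1lc3b, below 1, then had intervals that included the median, while Pik3r4, Sqstm1 and Tax1bp1, whose intervals included 1, lay above it. This last comparison was added after the values were seen.

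**Figure D1:**
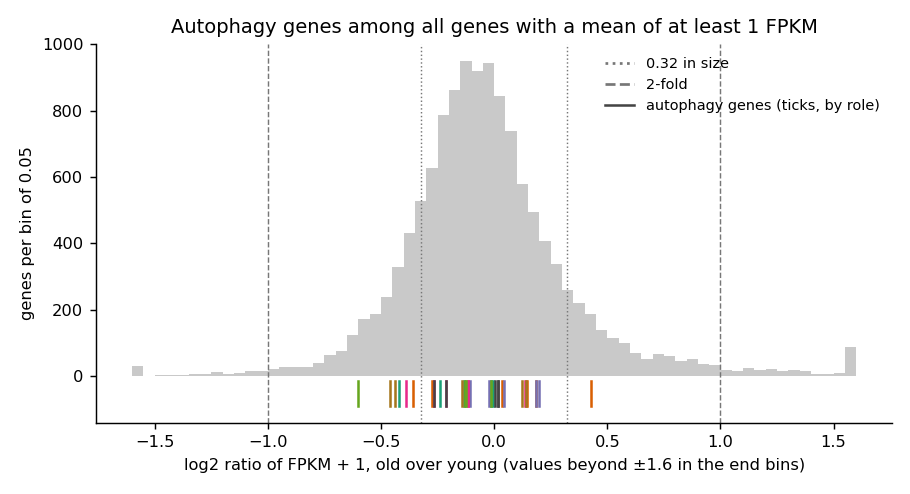
Histogram of log2 ratios (FPKM + 1, old to young) for all 12561 genes whose mean reached 1 FPKM (bins of 0.05; values beyond the axis sit in the end bins), with the 36 autophagy genes as ticks under the axis, coloured by role. Dotted lines mark 0.32 in each direction and dashed lines 2-fold; all ticks lie between −0.60 and 0.43, inside the dashed lines.

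Levels of the members spanned 119-fold in the young and 133-fold in the old library. Sqstm1 was the most abundant at 428 and 429 FPKM, followed by the Atg8 gene Gabarap at 361 and 393 FPKM, the receptor Tax1bp1 at 144 and 145 FPKM and Gabarapl1 at 122 and 134 FPKM. These 4 were the only members above 100 FPKM in each library. Atg10, the enzyme that attaches Atg12 to Atg5, was the least abundant at 3.59 and 3.23 FPKM on 65 reads in each library, and 31 of the 36 reached 10 FPKM in each. In the order of levels, 23 of 35 neighbouring pairs had overlapping counting intervals in each library, so much of the order below the top is not resolved by the read numbers. Across the 36 genes the levels of both libraries gave a Pearson r of 0.990 on the log2 scale and a Spearman rho of 0.984, a description over genes of the same 2 libraries.

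A level in FPKM depends on the length it is divided by. The deposited values came out as whole reads when a gene's length was the mean of its annotated transcripts, and for 13 of the 36 members the longest transcript was at least 2 times that mean. Ulk1 is the extreme, with a mean of 1297 bases over 11 transcripts and a longest transcript of 5213 bases. Its level was 67.6 FPKM in the young library as deposited and would be 16.8 FPKM on the longest transcript, which moves it from rank 9 to rank 15 of the 36. On the longest transcripts Gabarap, at 233 FPKM, passed Sqstm1, at 196 FPKM. The length cancels in the ratio of FPKM and its interval, but not on the log2 scale of FPKM + 1, where longer lengths make differences smaller. On the longest transcripts the log2 ratio of Atg4d was −0.49 in place of −0.60, and 0 members were at 1.5-fold.

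**Figure D2:**
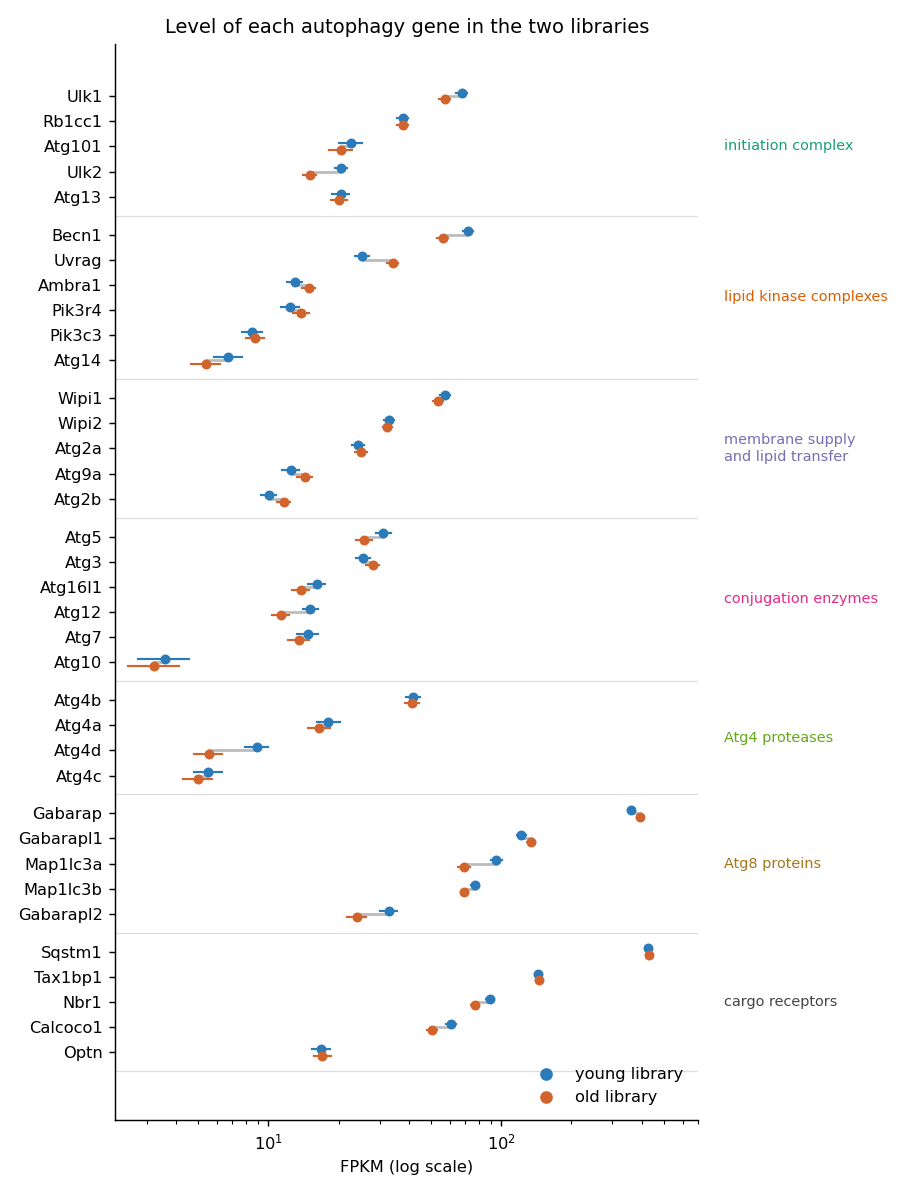
FPKM on a log axis for each autophagy gene, grouped by role, in the young (blue) and old (orange) library, with horizontal lines for the 95% Poisson counting interval and a grey line joining the libraries. Sqstm1 and Gabarap stand highest at 361 to 429 FPKM and Atg10 lowest at 3.59 and 3.23 FPKM.

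The initiation complex consists of the kinases Ulk1 and Ulk2, the adaptors Atg13 and Atg101 and the scaffold Rb1cc1 (FIP200). Ulk2 (ENSMUSG00000004798, chromosome 11, 61775649 to 61855073, GRCm38) was at 20.4 FPKM (young) and 15.03 FPKM (old), for a ratio of 0.735 [0.672 to 0.805]. Ulk1 was at 67.6 and 57.2 FPKM, for a ratio of 0.846 [0.784 to 0.912]. Both kinase mRNAs were thus lower in the old library beyond counting error, as were 33.5% of all genes. Ulk2 was lower by more: the Ulk1 to Ulk2 ratio was 3.31 (young) and 3.81 (old), 1.15 times higher [1.02 to 1.29]. The other 3 subunits lay closer to even, with intervals that included 1. Rb1cc1, which holds the complex together, was at 37.8 and 37.7 FPKM, Atg13 at 20.4 and 20.2 FPKM and Atg101 at 22.5 and 20.5 FPKM. The median log2 ratio of the 5 genes was −0.13 and all 5 were below 0, as were 59.6% of all genes, though Atg13 and Rb1cc1, at −0.02 and −0.003, are above 0 once values are centred on the median of all genes.

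In the lipid kinase complexes the catalytic subunit Pik3c3 (VPS34) and its partner Pik3r4 (VPS15) were near even, while the subunits that direct them went apart. Pik3c3 was at 8.51 and 8.74 FPKM and Pik3r4 at 12.4 and 13.8 FPKM, both with intervals that included 1. Becn1, the shared scaffold Beclin 1, was at 72.2 FPKM (young) and 56.0 FPKM (old), for a ratio of 0.776 [0.721 to 0.836]. Its exon bases overlap the opposite-strand gene Cntd1 over 43.9% of their length, and Cntd1 was listed with 2 and 6 reads. Ambra1, which couples the initiation kinase to Beclin 1, was at 12.98 and 14.9 FPKM, for a ratio of 1.15 [1.04 to 1.26].

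Atg14 and Uvrag bind Beclin 1 in place of one another. The complex with Atg14 acts in autophagosome formation, and that with Uvrag at endosomes and in autophagosome maturation. Uvrag (ENSMUSG00000035354, chromosome 7, 98885021 to 99141141) rested on 863 reads (young) and 1299 (old), or 25.2 and 34.2 FPKM, for a ratio of 1.36 [1.24 to 1.48]. It ranked 1097 of 12561 genes by log2 ratio, the highest of the 36 members. Atg14 (ENSMUSG00000037526, chromosome 14, 47540893 to 47570649) had 221 and 196 reads, or 6.72 and 5.38 FPKM, for a ratio of 0.7997 [0.656 to 0.974]. The Uvrag to Atg14 ratio was therefore 3.74 (young) and 6.36 (old), 1.697 times higher [1.37 to 2.11]. Gene length and library total cancel in this comparison of ratios. It was the largest shift among 8 pairs of alternative or related members compared, a set chosen after the values were seen. Of Uvrag's exon bases, 17.6% overlap the antisense gene Gm45187, which had no reads.

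The sequences before the starts of this pair are shown because the pair moved apart. They are RefSeq promoters of GRCm38.p6, each the 250 bases before the annotated start on the gene's own strand (minus for both), at chr7:99141145-99141394 for Uvrag and chr14:47568435-47568684 for Atg14. The Uvrag start used lies 3 bases from that of the GENCODE gene. For Atg14 the RefSeq start is that of a GENCODE transcript but lies 2215 bases inside the GENCODE gene, which has another transcript starting further upstream. Capitals mark CCAAT, the motif of NF-Y, and GGGCGG, the motif of Sp1, on either strand (ATTGG and CCGCCC on the other).
Uvrag: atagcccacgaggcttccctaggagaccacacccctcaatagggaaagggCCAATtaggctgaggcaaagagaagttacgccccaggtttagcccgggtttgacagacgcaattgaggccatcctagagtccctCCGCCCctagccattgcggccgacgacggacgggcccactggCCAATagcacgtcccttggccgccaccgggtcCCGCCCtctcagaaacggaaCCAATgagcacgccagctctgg
Atg14: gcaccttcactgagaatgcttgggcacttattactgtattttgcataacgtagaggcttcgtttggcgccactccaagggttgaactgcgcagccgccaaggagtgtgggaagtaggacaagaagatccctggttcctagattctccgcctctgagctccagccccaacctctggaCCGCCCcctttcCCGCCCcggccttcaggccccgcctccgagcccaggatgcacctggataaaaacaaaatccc
The Uvrag stretch holds 3 copies of CCAAT and 2 of GGGCGG with a GC content of 61.6%. That of Atg14 holds 2 copies of GGGCGG and none of CCAAT, at 57.2% GC. A match is a description of letters and not evidence of binding.

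The membrane supply genes had log2 ratios between −0.11 and 0.20. Atg9a, a membrane protein that seeds the growing autophagosome, was at 12.5 and 14.3 FPKM, for a ratio of 1.15 [1.02 to 1.29]. Its reads did not come out whole with this annotation and were rounded, 32.6% of its exon bases overlap other genes, and 41.3% of its sequence words are shared, nearly all with Gm29253, which had no reads, while the opposite-strand gene Ankzf1, which overlaps it, was at 9.19 and 7.95 FPKM. Atg2b, one of the lipid transfer proteins, was at 10.0 and 11.7 FPKM, for a ratio of 1.16 [1.05 to 1.28], and its copy Atg2a at 24.3 and 25.02 FPKM, with an interval that included 1. Wipi1 and Wipi2 read the lipid made by Pik3c3. Wipi1 was the lowest of the group by ratio, at 57.6 and 53.5 FPKM (0.929 [0.866 to 0.995]), and Wipi2 was at 32.9 and 32.4 FPKM. The Atg2a to Atg2b and Wipi1 to Wipi2 ratios changed by factors of 0.888 [0.781 to 1.01] and 0.943 [0.854 to 1.04], both with intervals that included 1.

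**Figure D3:**
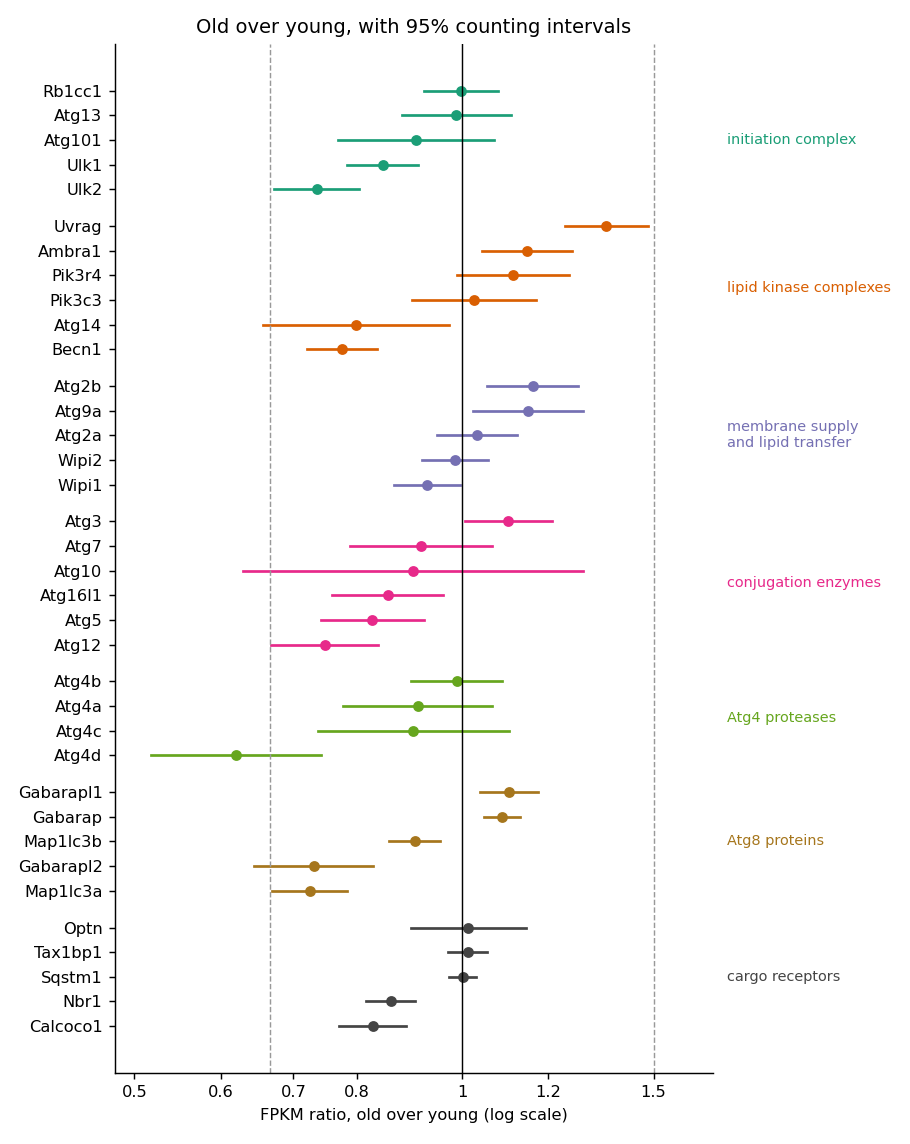
FPKM ratio, old over young, on a log axis for each autophagy gene by role, with 95% counting intervals; dashed lines mark 1.5-fold in each direction. Atg4d is the one gene past a dashed line at 0.620, Uvrag is highest at 1.36, and the intervals of Sqstm1, Tax1bp1 and Optn include 1.

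The conjugation enzymes work in sequence. Atg7 activates both Atg12 and the Atg8 proteins, Atg10 passes Atg12 to Atg5, Atg3 carries the Atg8 proteins, and the Atg12, Atg5 and Atg16l1 complex places them on the membrane. The 3 genes of that last complex had intervals below 1, as did 33.5% of all genes, and that of Atg16l1 included the median ratio of all genes. Atg12 was at 15.1 and 11.3 FPKM, for a ratio of 0.748 [0.668 to 0.837], on 686 and 569 reads. Atg5 was at 31.1 and 25.7 FPKM, for a ratio of 0.827 [0.742 to 0.922], and Atg16l1 at 16.1 and 13.8 FPKM, for a ratio of 0.854 [0.760 to 0.961]. All 3 share under 1% of their sequence words with other genes. Atg3 was the only enzyme above 0, at 25.4 and 28.0 FPKM with a ratio of 1.10 [1.01 to 1.21]. Atg7, at 14.7 and 13.5 FPKM, and Atg10 had intervals that included 1. The group's median log2 ratio was −0.16, with 5 of 6 genes below 0 beside 59.6% of all genes.

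Atg3 also carries, among the 30 members found in the RefSeq promoter table, the only window with TCACGTGA, the palindromic core of the element bound by Tfeb and Tfe3, factors that switch on lysosome and autophagy genes. Its 250 bases before the start lie at chr16:45158579-45158828 on the plus strand, with CACGTG (which TCACGTGA contains), TCACGTGA and GGGCGG in capitals.
Atg3: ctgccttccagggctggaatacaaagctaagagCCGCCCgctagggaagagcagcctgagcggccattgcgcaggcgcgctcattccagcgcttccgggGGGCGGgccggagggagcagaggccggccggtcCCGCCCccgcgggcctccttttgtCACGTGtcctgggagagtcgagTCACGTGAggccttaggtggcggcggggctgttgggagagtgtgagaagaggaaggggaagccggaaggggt
The RefSeq start used lies 44 bases inside the GENCODE gene. This stretch holds 2 copies of CACGTG and 3 of GGGCGG at 68.0% GC. Windows of 300 bases, from 250 before to 50 after the start, were searched on both strands for all 27025 genes in the table. These include genes not expressed here, and no share was taken over expressed genes alone, so the shares below are not matched for expression. CACGTG was in the windows of 4 of 30 members (Atg3, Atg5, Atg7 and Atg14), or 13.3%, and of 8.09% of all genes. The 250 bases shown for Atg14 hold no whole CACGTG, so its match lies elsewhere in the windows searched. TCACGTGA was in 3.33% of members and 1.12% of all genes. GGGCGG was in 21 of 30 members (70.0%) and 38.2% of all genes, and CCAAT in 8 (26.7%) and 41.1%. TGACGTCA, the cyclic AMP element, was in 1 member (Atg5) and 2.03% of all genes. TGTTTAC, the forkhead motif, and TGATGNAA, the ATF4 motif, were in no member's window and in 4.05% and 4.51% of all genes. With the highest value over each gene's windows, members had a median GC content of 61.7% and 21.5 CpG pairs. All genes had 53.3% and 8, and GGGCGG is itself made of G and C. Atg3, Atg5, Atg7 and Atg14, which share CACGTG, had log2 ratios of 0.14, −0.26, −0.12 and −0.28. The members without an entry were Rb1cc1, Pik3c3, Becn1, Atg12, Atg16l1 and Map1lc3a.

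The Atg4 proteases trim new Atg8 proteins so that they can be conjugated and later cut them from membranes. Atg4d (ENSMUSG00000002820, chromosome 9, 21265293 to 21277772, plus strand) showed the largest difference of the 36 members. It had 304 reads (young) and 209 (old), or 8.93 and 5.54 FPKM, for a ratio of 0.620 [0.517 to 0.742]. Its log2 ratio of −0.60 ranked 12056 of 12561 genes. This passes 1.5-fold by little and does not at a pseudocount of 5 or with values centred on the median of all genes. Of its exon bases 19.3% overlap Kri1, a gene on the opposite strand at 22.8 and 21.9 FPKM, and with no stated use of strand the reads of both cannot be told apart there.

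The 250 bases before the start of Atg4d, shown because this gene differed most, lie at chr9:21265035-21265284 on the plus strand, with GGGCGG and CCAAT (here as ATTGG) in capitals.
Atg4d: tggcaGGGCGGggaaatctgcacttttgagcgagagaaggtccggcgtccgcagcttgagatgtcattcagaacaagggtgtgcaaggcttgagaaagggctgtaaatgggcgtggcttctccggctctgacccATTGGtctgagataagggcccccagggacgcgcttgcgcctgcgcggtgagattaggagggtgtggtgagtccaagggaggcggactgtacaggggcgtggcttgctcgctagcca
It holds 1 copy of each at 60.4% GC.

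The other proteases lay nearer to even. Atg4b, the family's main enzyme, was at 41.8 and 41.4 FPKM, Atg4a at 18.1 and 16.5 FPKM and Atg4c at 5.53 and 4.98 FPKM, all with intervals that included 1. Atg4a shares 52.8% of its sequence words with Atg4a-ps, which was listed at 0.405 and 0.235 FPKM. Atg4b made up 56.2% of the family's summed FPKM (young) and 60.5% (old), while the share of Atg4d was 12.01% and 8.10%. The Atg4b to Atg4d ratio was 4.68 (young) and 7.47 (old), 1.595 times higher [1.30 to 1.959].

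The Atg8 family kept its total and differed in its make-up. The 5 genes summed to 688 FPKM (young) and 690 FPKM (old), for a ratio of 1.003, with counting intervals above 1 for 2 of them and below 1 for 3, beside 20.6% and 33.5% of all genes. Gabarap (ENSMUSG00000018567, chromosome 11, 69991143 to 69994951), founder of the GABARAP branch, was at 361 and 393 FPKM on 5142 and 6206 reads, for a ratio of 1.09 [1.05 to 1.13]. Gabarapl1 of the same branch was at 122 and 134 FPKM, for a ratio of 1.10 [1.04 to 1.17]. The third GABARAP gene, Gabarapl2 (GATE-16), went the other way, at 32.8 and 24.0 FPKM, for a ratio of 0.731 [0.644 to 0.829]. Both LC3 genes were lower in the old library. Map1lc3a (ENSMUSG00000027602, chromosome 2, 155276297 to 155278073) was at 95.2 and 69.0 FPKM on 1423 and 1143 reads, for a ratio of 0.724 [0.669 to 0.783]. Map1lc3b, the form most used as an autophagosome marker, was at 76.8 and 69.4 FPKM, for a ratio of 0.904 [0.857 to 0.954].

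As shares of the family's summed FPKM, Gabarap made up 52.5% (young) and 57.0% (old) and Gabarapl1 17.7% and 19.5%. Map1lc3a made up 13.8% and 10.0%, Map1lc3b 11.2% and 10.1%, and Gabarapl2 4.78% and 3.48%. Map1lc3a was thus above Map1lc3b in the young library and level with it in the old, a change of the Map1lc3b to Map1lc3a ratio by a factor of 1.249 [1.14 to 1.37]. On the longest transcripts Map1lc3a stayed above Map1lc3b in both, at 18.0% and 9.24% in the young and 13.1% and 8.43% in the old library. The Gabarapl1 to Gabarapl2 ratio was 3.70 and 5.60, a factor of 1.51 [1.31 to 1.74]. Map1lc3a and Gabarap share no sequence words with other genes. Gabarapl2 shares 19.0% of its words, among them 14.0% with the pseudogene Gm3724, which had 4 and 2 reads. Map1lc3b shares 11.9%, of which 9.13% with Gm6055, at 40.8 and 32.6 FPKM. Gabarapl1 shares 24.7%, with an opposite-strand transcript that had 5 and 10 reads.

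**Figure D4:**
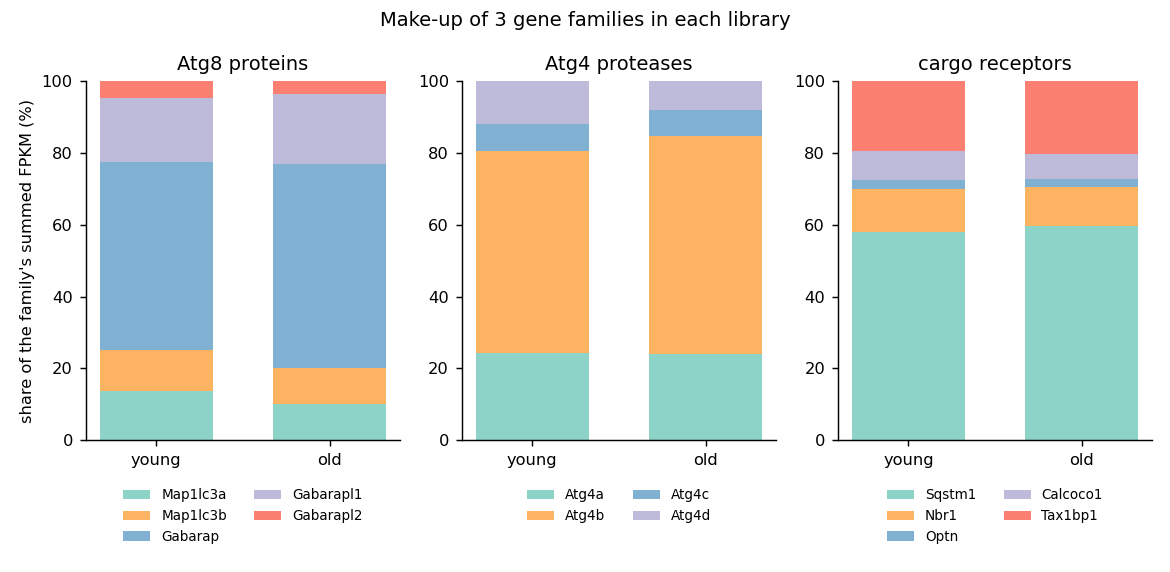
Share of the summed FPKM (%) of each gene in the Atg8, Atg4 and cargo receptor families in the young and the old library, as stacked bars of 100%. Gabarap goes from 52.5% to 57.0%, Map1lc3a from 13.8% to 10.0% and Atg4d from 12.01% to 8.10%, while the receptors differ by at most 1.72 percentage points.

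The cargo receptors bind ubiquitin-tagged or other cargo with one part and Atg8 proteins with another. Sqstm1 (ENSMUSG00000015837, chromosome 11, 50199366 to 50210827), the receptor p62, was at 428 FPKM on 8547 reads in the young and 429 FPKM on 9489 reads in the old library. Its ratio of 1.001 [0.972 to 1.03] was held by the read numbers to within a few percent of even. Tax1bp1 was at 144 and 145 FPKM, for a ratio of 1.01 [0.971 to 1.06], and Optn, optineurin, at 16.8 and 17.1 FPKM, for a ratio of 1.01 [0.898 to 1.14]. These 3 receptors also act in signalling that limits or drives inflammation. The interval of each included 1, as did those of 5762 of 12554 genes at large. The intervals of Sqstm1 and Tax1bp1 lay above the median ratio of all genes, 0.952. Nbr1, which resembles p62 in its binding parts, was at 89.2 and 76.7 FPKM, for a ratio of 0.860 [0.816 to 0.906]. Calcoco1, a receptor for endoplasmic reticulum and Golgi, was at 60.9 and 50.4 FPKM, for a ratio of 0.828 [0.771 to 0.889]. Sqstm1 made up 58.0% of the receptors' summed FPKM (young) and 59.7% (old). The Sqstm1 to Nbr1 ratio was 4.80 and 5.59, a factor of 1.16 [1.10 to 1.24]. Of Sqstm1's exon bases 17.3% overlap the opposite-strand gene Mrnip, at 13.04 and 9.12 FPKM.

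Several of the members with the larger differences share sequence with other genes. Of the 36 genes, 8 share at least 10% of their 50-base words with other genes: Becn1, Uvrag, Atg9a, Atg4a, Atg4d, Map1lc3b, Gabarapl1 and Gabarapl2. Without them, 3 of the remaining 28 genes reached a log2 ratio of 0.32 in size, all lower in the old library, namely Map1lc3a, Ulk2 and Atg12. Of all genes, 17.2% were lower and 12.3% higher at this size. Those shares were not taken over genes with little shared sequence alone. How the deposited counting treated reads in shared or overlapping sequence could not be learned from the sources used here, and its part in these ratios was not tested.

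Another 70 genes of the pathway, in 5 lists, gave a like picture. On the scale of FPKM + 1, none of the 68 that passed a mean of 1 FPKM differed by 2-fold. Sesn2 and Stx17 (2 genes, 2.94%) were lower by 1.5-fold, beside 4.47% of all genes. At a log2 ratio of 0.32 in size, 2 were higher (2.94%) and 7 lower (10.3%), beside 12.3% and 17.2% of all genes, and the median log2 ratio was −0.05. Prkaa2, a catalytic subunit of the energy-sensing kinase AMPK, did not pass, at 0.983 and 0.651 FPKM.

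Nutrient and stress control had a median of −0.002 over 15 genes, with Mtor, the kinase that holds Ulk1 inactive in fed cells, at 9.34 and 8.41 FPKM. Sesn2, a stress-induced inhibitor of that kinase, was at 43.6 and 28.1 FPKM, for a ratio of 0.645 [0.607 to 0.686]. Among 8 transcription factors (median −0.01), the ratios ran from Zkscan3, a repressor of autophagy genes, at 24.7 and 20.2 FPKM (0.816 [0.747 to 0.891]), to Mitf at 4.05 and 5.54 FPKM (1.37 [1.10 to 1.702]). Tfeb was at 19.8 and 19.1 FPKM with an interval that included 1, and Tfe3 at 17.9 and 20.2 FPKM, for a ratio of 1.13 [1.03 to 1.24]. The 11 other formation genes had a median of −0.06, from Mcl1, which binds Beclin 1 and blocks apoptosis, at 78.4 and 61.5 FPKM, to Sh3glb1 at 75.2 and 82.6 FPKM.

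In the list for fusion with lysosomes the median of 17 genes was −0.01, with 8 above and 9 below 0. Stx17, the SNARE protein of the autophagosome that joins it to the lysosome, was at 26.5 FPKM (young) and 17.0 FPKM (old), for a ratio of 0.640 [0.582 to 0.704] on 1049 and 745 reads. Its partners in the fusion complex, named here after their values were seen, were Snap29 at 7.03 and 5.08 FPKM (0.722 [0.621 to 0.839]) and Vamp8 at 44.1 and 35.99 FPKM (0.815 [0.746 to 0.891]). All 3 SNARE genes of this complex had intervals below 1, as did 6 of the 17 genes listed (35.3%) and 33.5% of all genes. The 3 SNARE genes share under 1% of their words with other genes. Ykt6, a SNARE of a parallel fusion complex that also uses Snap29, was at 81.7 and 83.1 FPKM, for a ratio of 1.02 [0.961 to 1.08]. Vps11, of the tethering complex, was highest in the list at 18.3 and 21.6 FPKM (1.18 [1.07 to 1.31]), and Lamp1 of the lysosome membrane was at 627 and 693 FPKM.

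Organelle receptors and adaptors had the lowest median of the 5 lists, −0.17, with 14 of 17 genes (82.4%) below 0 beside 59.6% of all genes. Intervals lay below 1 for 9 of them (52.9%), beside 33.5% of all genes. These interval shares are not matched for depth, since the listed genes had at least 62 reads in a library and all genes went down to 0. Stbd1, a receptor for glycogen, was lowest at 15.8 and 10.5 FPKM, for a ratio of 0.666 [0.568 to 0.782]. Its log2 ratio of FPKM + 1, −0.54, fell short of 1.5-fold. Bnip3, a mitophagy receptor induced by low oxygen, was highest at 59.3 and 80.9 FPKM, for a ratio of 1.36 [1.24 to 1.504]. Bnip3 shares 50% of its sequence words with other genes.

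**Figure D5:**
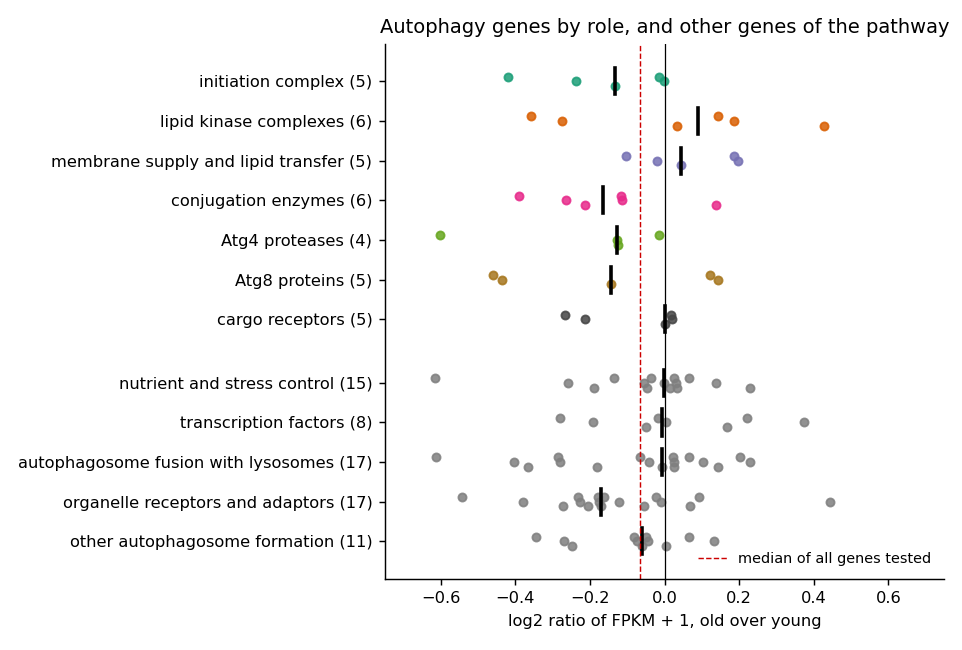
Log2 ratios (FPKM + 1, old to young) of the 36 autophagy genes by role (coloured) and of 68 other genes of the pathway by list (grey), with the number of genes in brackets and a black bar at each median. The dashed line is the median of all genes tested, −0.07; every point lies between −0.61 and 0.44.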

How the data were processed

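RNA sequencing had measured mRNA in 2 libraries, 1 from young and 1 from old mice. The authors deposited 1 FPKM value per gene and library, made per the submitters' processing notes with fastp, STAR, HTSeq and edgeR on mm10; the sources used here do not give their roles, versions, filters or use of strand. Gene symbols and coordinates came from GENCODE M21 (GRCm38), which held 55227 of 55487 identifiers. With the mean transcript length, 97.6% of values above 0 in each library were whole reads within a tolerance of 0.01. Reads served for exact intervals, Clopper-Pearson for ratios (95%), Poisson for levels and conditional odds ratios for pairs of genes. They also gave the shares of reads and the rescaling without the 10 most abundant genes. PCR copies are not independent molecules. Log2 ratios used FPKM + 1 for genes whose mean reached 1 FPKM. Words of 50 bases, taken every 25, were searched in all other genes' transcripts. The members and lists were chosen with earlier results of these data known. All members are named, and of the other pathway genes those at 1.5-fold (up to 3 a list), otherwise the highest and lowest of a list; any further gene was chosen after its values were seen. Alternatives were pseudocounts of 0.1 and 5, no filter, a mean of 10 FPKM, rescaling without the 10 most abundant genes, centring, members with little shared sequence and, added after the values were seen, longest transcripts and intervals set against the median ratio. Intervals and folds were tried on simulated data that held counting error alone. The intervals assume the same, so this does not cover the spread between cultures or animals. Python 3.11.15, numpy 2.4.6, pandas 2.3.3 and scipy 1.17.1 were used.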

Additional observations from a re-analysis of the deposited data

How the results depend on the processing

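No paired analysis was possible because each group has 1 library, and for the same reason no replicate could be left out. Of the 36 members' log2 ratios under 5 alternatives (180 values), 177 moved by less than their counting interval and 3, all under centring, by more; none with an interval clear of 1 changed sign. The count of 1 member at 1.5-fold became 0 at a pseudocount of 5, with centring, at a mean of at least 10 FPKM, on the longest transcript, and among members with little shared sequence, where the count at a log2 ratio of 0.32 in size was 3 in place of 7. No member was at 2-fold under any of these alternatives. The medians of the members, role groups and lists moved by less than the median half-width of their genes' counting intervals. That width belongs to single genes and is not the error of a median. The members' median, −0.11, became −0.02 at a mean of at least 10 FPKM and −0.06 among members with little shared sequence. With centring it was −0.04, and the medians of all pathway lists but organelle receptors and adaptors were above 0. Family shares moved with the measure. As shares of reads, Gabarap had 43.8% (young) and 48.3% (old), Atg4b 49.9% and 55.1%, and Sqstm1 47.9% and 49.6%. On the longest transcript, an alternative added after the values were seen, Gabarap had 53.5% and 58.8%, Atg4b 43.0% and 46.8%, and Sqstm1 ranked 2 by level in both libraries. Depth limits Atg10, Atg4c, Atg14 and Atg4d most, with 65 to 304 reads in a library.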
